A study of Mus musculus with 40 samples.

Results

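Vip, Nms, Grp, Prok2, Lhx1 and Six3, a set of genes known as peptides and markers of the suprachiasmatic nucleus, were followed through 40 mouse hypothalamic mRNA libraries. The members were taken by name, as 6 of the 23955 gene rows of the count table, and no measured value enters the choice rule. All 6 rows were found and all 6 had reads in all 40 libraries.

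The suprachiasmatic nucleus is the paired cell group above the optic chiasm that keeps the circadian rhythm of the brain. Each of its neurons runs a clock of Per, Cry, Clock and Arntl transcription, and peptides hold the neurons in step. Vasoactive intestinal peptide (Vip) and gastrin-releasing peptide (Grp) are made by neurons of the ventral core that receive retinal input, neuromedin S (Nms) by a wider subset of suprachiasmatic neurons, and prokineticin 2 (Prok2) is a rhythmic output signal of the nucleus. Lhx1 encodes a LIM homeodomain factor needed for the late differentiation of these neurons and for the expression of their coupling peptides. Six3 encodes a homeodomain factor of the anterior forebrain that is needed for the nucleus to form. Outside the nucleus Vip is also made by cortical interneurons, and Vip and Grp by other cells. Lhx1 is also made by neurons of the mammillary region and Six3 by basal forebrain neurons. A value from the whole hypothalamus is therefore the sum over these sources.

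The libraries came from 36 BXD lines, which are inbred strains bred from a C57BL/6J by DBA/2J cross, from the reciprocal F1 hybrids B6D2F1 and D2B6F1, and from the inbred parents C57BL/6J and DBA/2J. All mice were in the basal condition at 1 time point with no treatment, and each strain was represented by 1 library. For the BXD lines, RNA of 3 to 6 hypothalami was pooled, so differences between animals of a line were averaged in the pool and could not be measured. Sex, age and hour of dissection were not given in the labels used here. Levels are given as counts per M (CPM), the reads of a gene per M reads counted in genes, with library totals scaled by the trimmed mean of M values. Library totals ran from 12.2 to 40.4 M reads with a median of 23.6 M.

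The library of BXD32 stood apart from the other 39. It held 8.30 CPM of Hoxb5, a hindbrain gene that was at 0 in 37 of the other libraries, and 12.9 CPM of Tph2, the neuronal enzyme of serotonin synthesis, against at most 0.978 CPM elsewhere. The protocol in the labels speaks of both hypothalamus and brainstem tissue. The 10 choroid plexus markers summed to 1878 CPM in BXD32 and to 249 to 443 CPM in the other lines. Results that touch BXD32 are therefore given with and without it, as an alternative chosen after seeing the data. In bulk RNA, fewer cells of a type and less RNA per cell cannot be told apart.

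The promoters of Vip, Nms and Lhx1 are shown because Vip varied with Lhx1 and with Nms across the lines. That of Prok2 is shown as a member without a called pair, as Grp and Six3 also were. Each is 250 bases before to 50 bases after the RefSeq transcript start on GRCm38.p6, read 5′ to 3′ on the gene's strand, at chr10:5638968-5639267 (plus strand) for Vip, chr1:38938899-38939198 (plus) for Nms, chr11:84525485-84525784 (minus) for Lhx1 and chr6:99726343-99726642 (minus) for Prok2. Capitals mark TGACG, the core of a cAMP response element, the CCAAT box and the CACGTG E-box bound by CLOCK and BMAL1, on either strand.
Vip: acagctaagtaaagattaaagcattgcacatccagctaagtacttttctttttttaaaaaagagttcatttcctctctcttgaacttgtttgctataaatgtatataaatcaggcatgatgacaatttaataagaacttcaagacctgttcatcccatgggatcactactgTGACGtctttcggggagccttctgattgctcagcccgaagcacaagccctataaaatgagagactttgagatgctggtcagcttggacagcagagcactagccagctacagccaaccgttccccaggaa
Nms: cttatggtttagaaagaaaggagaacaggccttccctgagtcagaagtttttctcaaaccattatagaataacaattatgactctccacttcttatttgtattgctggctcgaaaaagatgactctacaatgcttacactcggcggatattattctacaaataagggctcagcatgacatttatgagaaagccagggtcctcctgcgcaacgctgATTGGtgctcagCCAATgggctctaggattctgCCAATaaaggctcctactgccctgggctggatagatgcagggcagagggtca
Lhx1: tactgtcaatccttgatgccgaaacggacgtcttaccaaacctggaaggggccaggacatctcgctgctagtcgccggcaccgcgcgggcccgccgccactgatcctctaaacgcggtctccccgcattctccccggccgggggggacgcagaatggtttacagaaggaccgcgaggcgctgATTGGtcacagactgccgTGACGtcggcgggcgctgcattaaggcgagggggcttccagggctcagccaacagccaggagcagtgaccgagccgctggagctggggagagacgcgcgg
Prok2: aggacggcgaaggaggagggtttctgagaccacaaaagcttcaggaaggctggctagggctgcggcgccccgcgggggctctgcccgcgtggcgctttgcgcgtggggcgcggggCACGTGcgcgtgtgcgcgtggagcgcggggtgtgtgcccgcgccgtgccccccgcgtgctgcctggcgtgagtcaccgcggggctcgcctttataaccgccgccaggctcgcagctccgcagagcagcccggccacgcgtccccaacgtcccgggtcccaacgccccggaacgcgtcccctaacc
The Vip and Lhx1 windows each held 1 TGACG, a motif present in 20.8% of the 32851 mouse promoter windows of the same length. The full palindrome TGACGTCA, which contains TGACG and is in 1.79% of windows, was in none of the windows of Vip, Nms, Prok2, Lhx1 and Six3. CCAAT, in 37.4% of windows, occurred 3 times in Nms, 3 times in Six3 and 1 time in Lhx1. CACGTG was in the Prok2 window alone of these 5, against 7.15% of all windows. TAATTA, a homeodomain core found in 5.29% of windows, AGGTCA, the half-site of ROR receptors found in 16.3%, and TTATGTAA, the D-box bound by Dbp and Tef, found in 0.938%, were in none of these 5 windows. The windows also differed in base composition, with 41.7% G and C in Vip and 45.0% in Nms, 65.7% in Lhx1 and 73.7% in Prok2, beside a median of 52.7% over all windows. A match is a description of the letters and not a bound site, and the absence of a match says only that the letters are not in these 300 bases.

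Vip reached 5.62 CPM in the lowest line, BXD65, 8.62 CPM in the median line and 14.3 CPM in the highest, BXD85, from 106 to 408 reads. It stood at 8.92 CPM in B6D2F1 and 11.7 CPM in D2B6F1. The inbred parents stood at 6.64 CPM (C57BL/6J) and 7.50 CPM (DBA/2J). Both parents lay in the lower part of the BXD range, with 4 lines below C57BL/6J and 8 below DBA/2J, while D2B6F1 was above 32 of the 36 lines. The mean over the lines was 8.86 ± 1.99 CPM (SD, n = 36), and counting error accounted for 11.8% of the variance on the log2 scale.

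Nms, a ligand of the neuromedin U receptors, had the widest SD of the 6 on the log2 scale. Its lowest, median and highest lines were BXD98 at 0.714 CPM, 1.68 CPM and BXD71 at 2.98 CPM, on 10 to 79 reads, with a mean of 1.70 ± 0.540 CPM (SD, n = 36). It stood at 1.42 CPM in B6D2F1 and 1.44 CPM in D2B6F1, and the inbred parents at 1.03 CPM (C57BL/6J) and 1.78 CPM (DBA/2J), all inside the BXD range. The SD on the log2 scale was 0.46, wider than that of 94.9% of 14996 genes, and counting error made up 29.8% of that variance.

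Grp spanned 1.8 CPM in BXD64, 2.97 CPM in the median line and 3.96 CPM in BXD71, with a mean of 2.99 ± 0.50 CPM (SD, n = 36) on 30 to 160 reads. Its levels in B6D2F1, D2B6F1, C57BL/6J and DBA/2J were 2.77, 3.82, 3.16 and 3.26 CPM. Counting error made up 52.5% of its variance over the 36 lines, the largest share of the 6 members with BXD32 kept. The order of neighbouring lines in Grp is therefore not resolved at this depth.

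Prok2 was the scarcest member per length. It read 0.565 CPM in BXD32, from 13 reads, 1.83 CPM in the median line and 2.63 CPM in BXD95, and the next lowest line after BXD32 was BXD96 at 1.13 CPM. It stood at 1.76 CPM in B6D2F1 and 1.77 CPM in D2B6F1, and the inbred parents at 1.5 CPM (C57BL/6J) and 2.35 CPM (DBA/2J), the last above 34 of the 36 lines. The mean was 1.77 ± 0.417 CPM (SD, n = 36), and the SD on the log2 scale was 0.38 with BXD32 and 0.29 without it. Counting error made up 38.8% of the variance with BXD32 kept. Its SD from counting alone was 0.24 over the 36 lines, so the order of neighbouring lines in Prok2 is not resolved either.

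Lhx1 had its lowest level in BXD90 at 5.23 CPM, a median of 8.29 CPM and its highest level in BXD71 at 13.1 CPM, on 78 to 322 reads. BXD71 stood above the second line, BXD32 at 10.7 CPM. The mean was 8.43 ± 1.61 CPM (SD, n = 36), and B6D2F1, D2B6F1, C57BL/6J and DBA/2J were at 8.88, 10.5, 8.57 and 9.16 CPM, all above the BXD median.

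Six3 was the most abundant and the steadiest of the 6. It spanned 27.3 CPM in BXD32, 31.4 CPM in the next line, BXD55, 39.9 CPM in the median line and 46.9 CPM in BXD64, on 380 to 1713 reads. B6D2F1 and D2B6F1 were at 41.3 and 41.8 CPM, C57BL/6J at 36.5 CPM and DBA/2J at 45.2 CPM, the last above 35 of the 36 lines. The mean was 39.4 ± 3.75 CPM (SD, n = 36), and the SD on the log2 scale was 0.15, or 0.12 without BXD32.

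**Figure D1:**
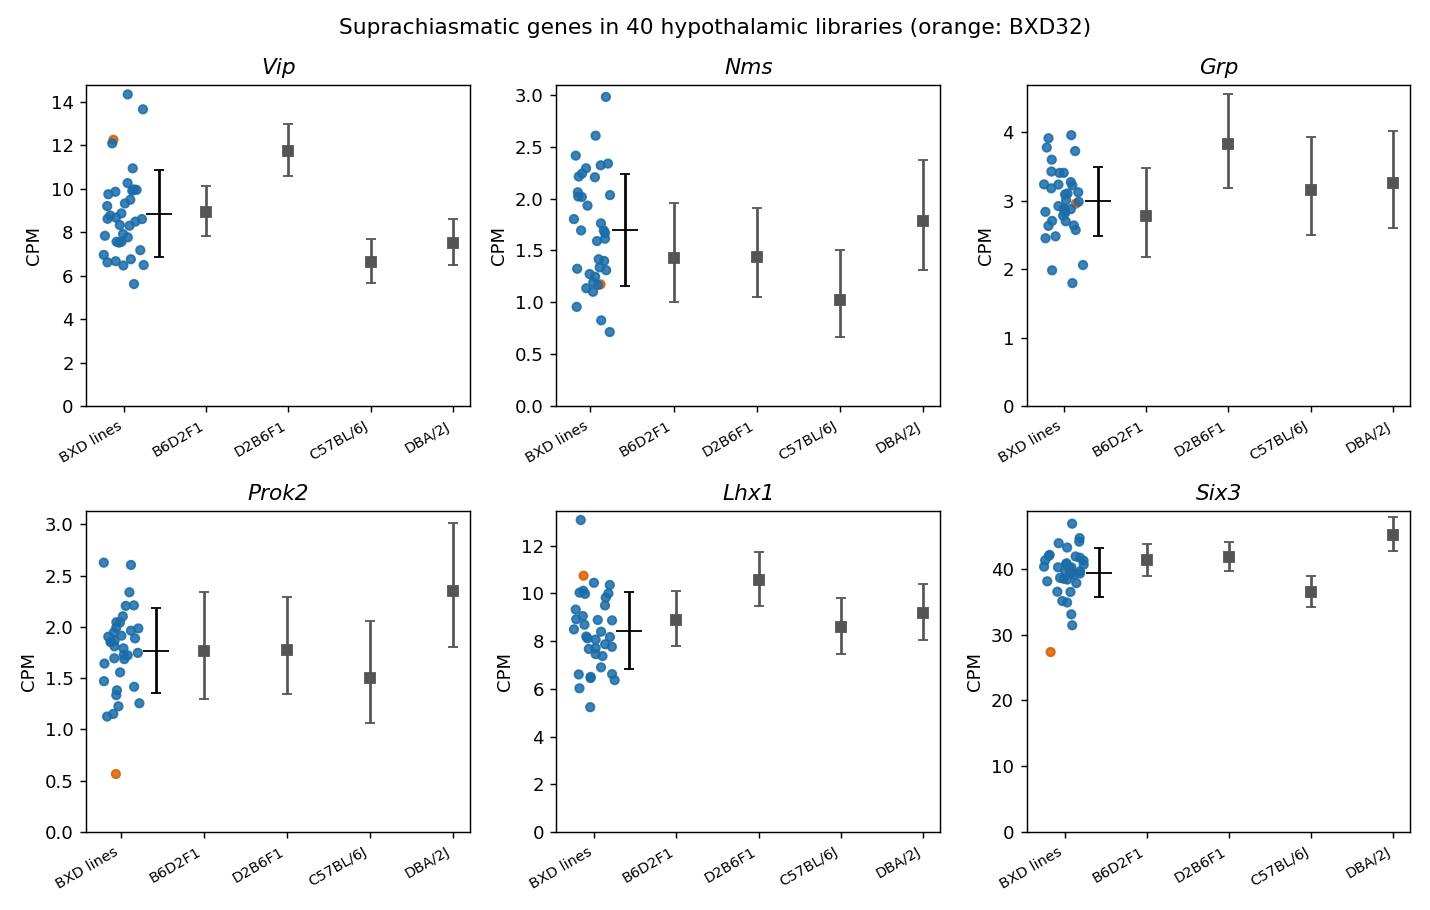
Level of each gene in CPM (linear axis from 0) in the 36 BXD lines (points, BXD32 in orange, black bar the mean ± SD) and in B6D2F1, D2B6F1, C57BL/6J and DBA/2J (grey squares, bars the 95% Poisson interval of the reads). BXD32 is the lowest line in Prok2 and Six3, at 0.565 and 27.3 CPM, and among the 3 highest in Vip and Lhx1.

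Per kilobase of exon, the mean level over the lines was 7.24 CPM for Six3, 2.60 for Vip, 2.07 for Lhx1, 2.02 for Grp, 1.69 for Nms and 0.922 for Prok2. The Lhx1 and Grp values differ by less than the spread of either gene among lines. Leaving the 6 end lines on either side aside, the widest step from one line to the next was 0.05 log2 units for Six3 to 0.16 for Nms. BXD71 was the highest of the 36 in Nms, Grp and Lhx1, rank 9 in Vip, rank 21 in Six3 and rank 27 in Prok2. BXD64 had the least Grp, the second least Lhx1 and the most Six3. BXD66 was among the 5 highest lines in Vip, Nms, Prok2, Lhx1 and Six3 and rank 28 in Grp.

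The receptors of these peptides were present at unlike levels. Vipr2, the VIP receptor of the suprachiasmatic nucleus, averaged 6.24 ± 1.14 CPM, Prokr2, the receptor of Prok2, 10.5 ± 1.26 CPM, and Nmur2, the brain receptor of neuromedins, 3.44 ± 0.654 CPM (SD, n = 36 for each). Per kilobase these were 1.40, 1.32 and 1.04 CPM. Grpr, the receptor of Grp, averaged 1.36 ± 0.410 CPM, Prokr1 1.16 ± 0.222 CPM, and Nmur1 0.297 ± 0.127 CPM with 0 to 13 reads. Vipr1, the second VIP receptor, ran from 0.778 CPM in BXD101 to 8.46 CPM in BXD90, while Vipr2 was lowest in BXD90, at 2.95 CPM, and highest in BXD101, at 9.24 CPM. Of the other suprachiasmatic genes examined, Six6, a homeodomain gene of the nucleus and the retina, averaged 7.44 ± 1.60 CPM and Avp, made in the nucleus and far more in the paraventricular and supraoptic nuclei, 89.6 ± 33.6 CPM (SD, n = 36).

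The first comparison asks whether the 36 BXD lines differ from the 4 other strains as a group. None of the 6 members and 0% of the 16198 genes tested passed the test (edgeR quasi-likelihood test, Benjamini-Hochberg adjusted over all genes). DESeq2 also called 0 genes, and 163 genes (1.01%) had an unadjusted p under 0.05. Nms averaged 1.70 ± 0.540 CPM in the BXD lines and 1.42 ± 0.308 CPM in the 4 other strains (SD), a log2 difference of 0.26 ± 0.23 (SE), the largest among the 6, with an adjusted p of 0.99976. For the other 5 members the differences lay between -0.14 for Lhx1 and 0.03 for Vip. The F1 hybrids were also set against the 38 inbred strains, and 0 of the 6 members and 0% of 16433 genes passed, with 105 genes (0.639%) at an unadjusted p under 0.05 and 0 genes called by DESeq2. Without BXD32 1 gene (0.00608%), no member, was called. Vip averaged 10.3 CPM in the hybrids (8.92 and 11.7 CPM) and 8.76 ± 1.98 CPM in the inbred strains (SD, n = 38), a log2 difference of 0.24 ± 0.21 (SE) with an adjusted p of 0.99999. With 1 library a strain, these p-values measure the spread between strains. In both contrasts each side holds C57BL/6J and DBA/2J alleles. A difference between the parental alleles can therefore largely cancel, and these contrasts cannot show whether a member differs by allele.

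Between single libraries no test was possible, and differences are given with their counting error alone. C57BL/6J had less Six3 than DBA/2J, 925 against 1193 reads, a log2 difference of -0.31 ± 0.06 (counting SE). Nms had 26 reads in C57BL/6J and 47 in DBA/2J, a difference of -0.75 ± 0.35, and Prok2 had 38 reads in C57BL/6J and 62 in DBA/2J, a difference of -0.62 ± 0.30, both about 2 counting errors wide. Vip, Grp and Lhx1 differed by -0.17 ± 0.15, -0.04 ± 0.22 and -0.10 ± 0.13. Of the 12157 genes with at least 5 CPM in either library, 0.633% differed by 1 log2 unit or more and 2.9% by 0.5. Vip, Lhx1 and Six3 were among these genes and 0 of the 3 reached 0.5 log2 units, while Nms, Grp and Prok2 were below 5 CPM in both libraries and outside that background. B6D2F1 had less Vip than D2B6F1, 238 against 384 reads, a log2 difference of -0.39 ± 0.12, less Grp, with a difference of -0.45 ± 0.21, and less Lhx1, with -0.25 ± 0.12. Nms, Prok2 and Six3 differed by -0.01 ± 0.31, -0.01 ± 0.28 and -0.02 ± 0.06 between the 2 hybrids. Of the 12126 genes with at least 5 CPM in either hybrid, 0.0412% differed by 1 log2 unit or more and 0.8% by 0.5, and of Vip, Lhx1 and Six3, which met that level, 0 reached 0.5. The mammillary markers summed to 59.8 CPM in B6D2F1 and 84.2 CPM in D2B6F1, and the arcuate markers to 204 CPM in B6D2F1 and 263 CPM in D2B6F1; their part in the Vip and Lhx1 differences was not tested.

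Across the 36 lines 2 of the 15 pairs of members had an adjusted permutation p under 0.05. Without adjustment Vip and Lhx1 had a permutation p of 0.00263 and Vip and Nms of 0.00619. Prok2 and Six3 (0.0238), Grp and Lhx1 (0.0425) and Nms and Six3 (0.0495) were also under 0.05 before adjustment. Fitted over the same lines, 2679 of 16003 genes varied with Vip at an unadjusted p under 0.05 (edgeR quasi-likelihood test). The same fits gave 2899 of 16003 genes for Lhx1 and 1140 of 16003 for Nms. Many other genes thus varied with these members, and the called pairs are not read as particular to the set. Vip and Lhx1 had a Pearson r of 0.48 (permutation p adjusted over the 15 pairs = 0.0394) and a Spearman rho of 0.52 (adjusted permutation p = 0.0189). Vip and Nms had an r of 0.45 (adjusted permutation p = 0.0464) and a rho of 0.46 (adjusted permutation p = 0.0395). Both relations stayed positive when lines were left out but not always past the threshold. Without BXD85 and BXD66, the lines farthest from the median of Vip, r was 0.42 for Lhx1 (adjusted permutation p = 0.122) and 0.37 for Nms (adjusted permutation p = 0.168). Leaving out each of the 36 lines in turn gave an r of 0.44 to 0.52 for Vip and Lhx1, called in 24 of the 36 omissions, and of 0.41 to 0.52 for Vip and Nms, called in 19. Without BXD32 the adjusted permutation p was 0.0571 for Vip and Lhx1 and 0.0204 for Vip and Nms.

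Nms and Lhx1, the third side of that triangle, had an r of 0.32 (adjusted permutation p = 0.143), and Grp and Lhx1 an r of 0.34 (adjusted permutation p = 0.143). Vip and Grp, both peptides of the ventral core, had an r of 0.12 and a rho of 0.01 (adjusted permutation p = 0.658 for r). Prok2 and Six3 had an r of 0.40 (adjusted permutation p = 0.119) that was -0.0039 without BXD32. Of the 6 members only Vip had a rho with depth at an adjusted permutation p under 0.05, and none had such an r. Vip and the log2 library total had an r of 0.38 (permutation p adjusted over the 6 members = 0.0711), a rho of 0.50 (adjusted permutation p = 0.0120) and an r of 0.57 without the 2 lines of most extreme depth, and Grp an r of 0.38 (adjusted permutation p = 0.0711), a rho of 0.29 (adjusted permutation p = 0.186) and an r of 0.25 without those lines. The r of Nms with depth was 0.33 (adjusted permutation p = 0.0978), and 0.16 without those lines. Its rho was 0.25 (adjusted permutation p = 0.222). For Lhx1 the r was 0.28 (adjusted permutation p = 0.153), and 0.40 without those lines. Its rho was 0.38 (adjusted permutation p = 0.0693). Prok2 had an r of -0.08 with depth (adjusted permutation p = 0.627) and Six3 of 0.17 (adjusted permutation p = 0.367). Vip, Nms and Lhx1, the genes of the called pairs, had a positive r with depth, as did Grp and Six3, which had no called pair. The slope of Lhx1 on Vip was 0.44 ± 0.13 (SE; adjusted p = 0.0455) and 0.41 ± 0.14 (adjusted p = 0.144) with the library total in the model.

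**Figure D2:**
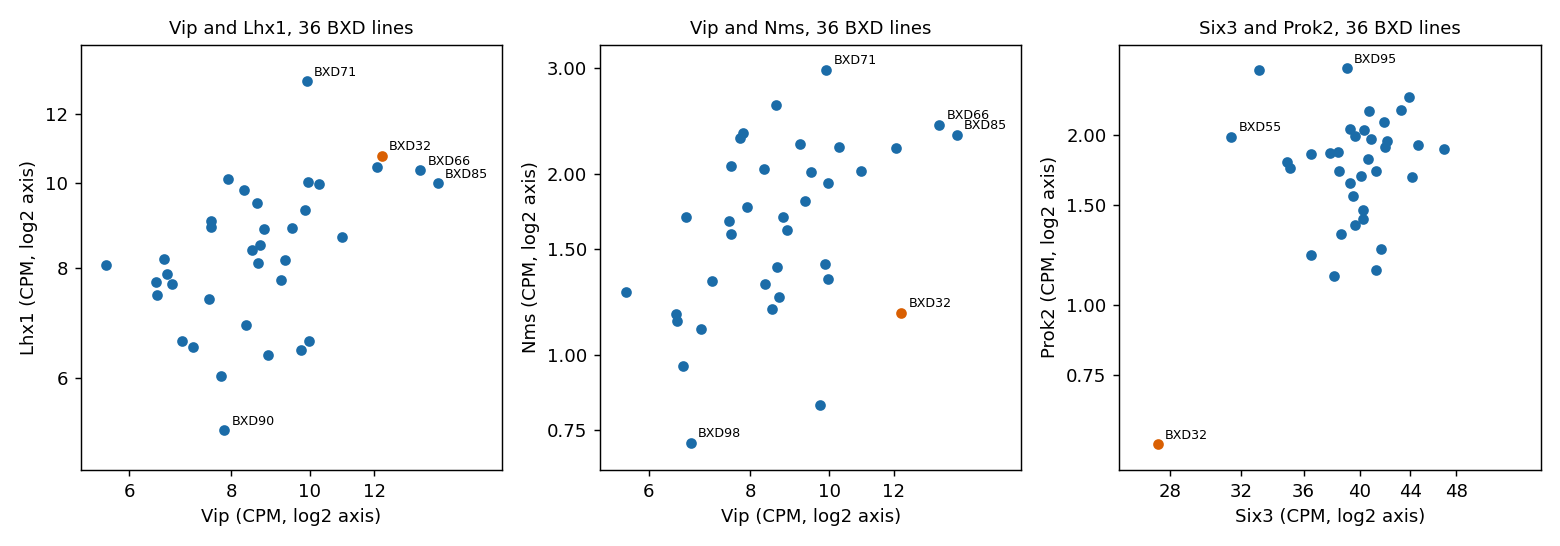
Levels in CPM (log2 axes) of Lhx1 against Vip, Nms against Vip and Prok2 against Six3, each point 1 of the 36 BXD lines, BXD32 in orange. Lhx1 and Nms tend to be higher in lines with more Vip (r = 0.48 and 0.45), while Prok2 and Six3 have an r of 0.40 with BXD32 and of -0.0039 without it.

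To find what else varied with each member, the level of every other gene was fitted on the log2 CPM of that member over the 36 lines, and slopes are log2 changes per log2 unit of the member. On Vip, 3.43% of 16003 genes changed, 230 higher and 319 lower in lines with more Vip. Among the 5 other members 1 was called, Lhx1. Without BXD32 Lhx1 missed the threshold (adjusted p = 0.0659) and Nms passed it, with a slope of 0.82 ± 0.22 (SE; adjusted p = 0.0259) against 0.70 ± 0.22 (adjusted p = 0.0743) with all lines. The genes most like Vip were Irs4, an insulin receptor substrate rich in the hypothalamus (r = 0.74), AW551984 (0.73), Scg2, the secretory granule protein secretogranin 2 (0.72), Plcd4 (0.72) and Enkur (0.71). Among those most opposed were Trpc5, a calcium-permeable channel (-0.77), and Sesn3 (-0.76). These r are descriptions over 36 lines that share their libraries and depth, among 14487 genes of at least 1 CPM.

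Of the other suprachiasmatic genes examined, 3 of 19 rose and 2 fell with Vip. Six6 rose, with a slope of 0.67 ± 0.11 (SE; adjusted p = 0.000545) that was 0.69 without BXD32. Cry1, a repressor of the clock, rose with a slope of 0.20 ± 0.06 (adjusted p = 0.0370) and Rorb, an orphan receptor of the nucleus, with 0.28 ± 0.07 (adjusted p = 0.0224), while Rora, its relative, fell with -0.76 ± 0.22 (adjusted p = 0.0470). The other 19 of 22 clock genes did not pass the test, and none of the 22 did with the library total in the model or without BXD66. Calb1 also rose, and Cck and Gad1 fell. Grpr, the only one of the 8 receptors of the members to change, fell with a slope of -1.08 ± 0.19 (adjusted p = 0.000856), and of the related ligands Adcyap1, which encodes PACAP, rose with 0.49 ± 0.09 (adjusted p = 0.00129).

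Of 6 ventromedial genes 4 rose (Nr5a1, Fezf1, Sox14 and Adcyap1), with a list median slope of 0.50 beside 0.00 over all genes tested and 1.44% of all genes called higher. Of 11 genes of peptide processing 3 rose (Pam, Chgb and Scg2), of 8 mammillary genes 2 rose (Foxb1 among them), and Nkx2-1, Trh and Tbx3 rose in the preoptic, paraventricular and arcuate lists. Of 11 thalamic genes 4 fell (Tcf7l2, Prkcd, Ramp3 and Zic1; median -0.54, 1.99% of all genes called lower), 1 of them without BXD32, and Lhx6, Lhx8 and Prox1 fell among the zona incerta, preoptic and hippocampal genes. The immediate early genes Egr3 and Arc also fell, as 2 of 13. Clic6 of the choroid plexus list and Gh of the pituitary list rose, Gh being the growth hormone of the pituitary, at a mean of 1.94 CPM. None of the 12 striatal, 11 meningeal, 10 myelin, 8 pan-neuronal and 8 astrocyte genes passed. Without BXD32 the adjusted p was above 0.05 for, among others, Lhx1, Gad1, Chgb, Egr3, Arc, Lhx6, Lhx8, Tcf7l2, Prkcd and Ramp3, from 0.0509 for Prkcd to 0.0918 for Lhx6. With the library total in the model, 3 of the ventromedial and 2 of the peptide processing genes rose, 2 of the thalamic genes fell, and 0 of the preoptic, paraventricular, arcuate, hippocampal and immediate early genes passed. Without BXD66 these last lists also had 0 genes called and 1 thalamic gene fell, and without BXD85 the preoptic, paraventricular, hippocampal and immediate early lists had 0. The number of genes called was 286 without BXD66, 415 without BXD85, 683 (4.25%) without BXD32 and 175 with the library total in the model.

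On Lhx1, 6.07% of 16003 genes changed, 324 higher and 647 lower in lines with more Lhx1, and among the 5 other members 1 was called, Vip, with a slope of 0.56 ± 0.16 (SE; adjusted p = 0.0244) that was 0.48 ± 0.16 (adjusted p = 0.0769) with the library total in the model. The most alike genes were Magel2, an imprinted hypothalamic gene (r = 0.80), Foxb1, a mammillary forkhead factor (0.76), Arhgap36 (0.75), Pam, the enzyme that amidates peptides such as VIP (0.75), and Parva (0.73). The most opposed were Samd12 (-0.80), Grm5, a glutamate receptor (-0.79), and Kalrn (-0.78).

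Genes of the striatum and septum fell with Lhx1 almost as a whole list, 11 of 12, with a median slope of -0.95 beside 0.01 over all genes and 4.04% of all genes called lower. They included Adora2a (-2.70 ± 0.38), Drd2, Drd1a (-1.81 ± 0.28), Ppp1r1b (-2.19 ± 0.33), Rgs9, Rarb, Pde10a, Penk, Syndig1l and Foxp1, with adjusted p from 2.84e-05 for Adora2a to 0.00820 for Drd2. BXD90, the line with the least Lhx1, held the most of these transcripts, 1630 CPM in sum, against 858 CPM in the next line, BXD45. Without BXD90 9 of the 12 fell and the median slope was -0.61. Of 8 cortical and hippocampal genes 3 fell with Lhx1 (Slc17a7, Tbr1 and Mef2c).

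Of 8 mammillary genes 5 rose (among them Foxb1, 0.85 ± 0.12, Lmx1b, Barhl1 and Lhx5), with a median slope of 0.68 and 2.02% of all genes called higher, and 8 rose without BXD32, 4 without BXD71 and 2 without BXD90 and BXD71. Of 6 ventromedial genes 4 rose (Nr5a1, Fezf1, Sox14 and Adcyap1), of 8 paraventricular and supraoptic genes 3 (Otp, Trh and Sim2), of 8 arcuate genes 2 (Agrp and Tbx3), of 11 preoptic genes 2 (Nkx2-1 and Calcr) while 1 fell, and of 7 lateral genes 1 (Pmch), which was not called without BXD90. The list medians were 0.65, 0.53, 0.52, 0.18 and -0.01 in that order. Of 11 peptide processing genes 4 rose (Pcsk1, Pam, Chgb and Scg2). The thalamic gene Zic1 fell, as 1 of 11. The share of hypothalamus against neighbouring tissue in each dissection was not measured apart from these markers, and its part in the Lhx1 slopes was not tested.

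Among genes of the suprachiasmatic lists, Six6 rose with Lhx1, with a slope of 0.73 ± 0.14 (SE; adjusted p = 0.000598) that was 0.72 without BXD90. Vipr1 fell with -1.94 ± 0.27 (adjusted p = 1.44e-05) and Grpr with -0.95 ± 0.23 (adjusted p = 0.00846), 2 of the 8 receptors, and Vipr1 still fell without BXD90, by 1.48 on the log2 scale per unit. Syt10, Cck, Penk, Drd1a and Gad1 fell, and of these Penk and Drd1a are also striatal genes. Of the 22 clock genes Npas2, a forebrain partner of Arntl, fell with -0.67 ± 0.11 (adjusted p = 0.000169) and Rora with -0.85 ± 0.25 (adjusted p = 0.0347), and the other 20 did not pass. The immediate early genes Egr3 and Arc fell, as 2 of 13. Without BXD90 0 of these 13 and 2 of the 19 other suprachiasmatic genes fell. Ttr and Kcne2 of the choroid plexus rose with adjusted p of 0.0187 and 0.0482, but of 0.969 and 0.650 without BXD32, while Otx2 of the same list fell; Chgb and Gh of the pituitary list rose. Cck, Zic1, Chgb and Gh had adjusted p of 0.0542 to 0.0745 without BXD32. None of the 11 meningeal, 10 myelin, 8 pan-neuronal and 8 astrocyte genes passed. Of all genes, 643 were called without BXD90, 859 without BXD71 and 1308 (8.14%) without BXD32.

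**Figure D3:**
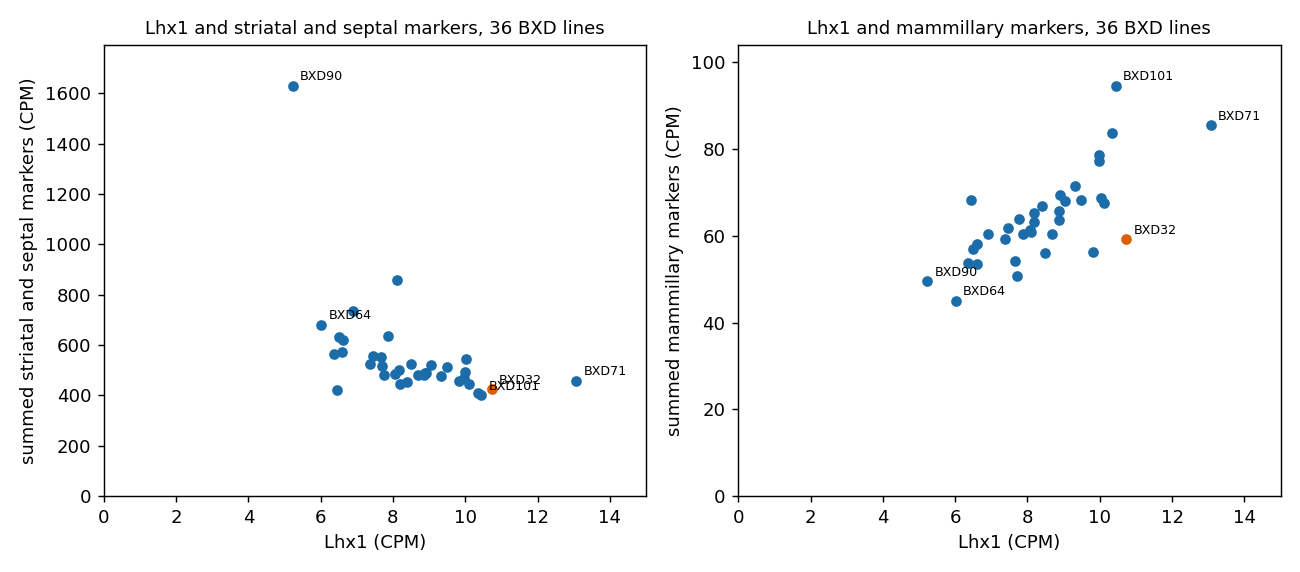
Lhx1 (CPM, horizontal) against the summed level of 12 striatal and septal genes (left, CPM) and 8 mammillary genes (right, CPM), each point 1 of the 36 BXD lines, BXD32 in orange. The striatal sum is highest in BXD90 at 1630 CPM, the line with the least Lhx1, and the mammillary sum is 45.1 CPM in BXD64 and 94.6 CPM in BXD101.

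On Grp, 6.89% of 16081 genes changed, 623 higher and 485 lower in lines with more Grp, and 0 of the 5 other members passed. The genes most like it were Fam216a (r = 0.72), Hcrt, the wake-promoting peptide orexin of the lateral hypothalamus (0.69), Ube2ql1 (0.69), Nr1h2 (0.68) and 2310039H08Rik (0.68), and the most opposed were Pdgfra (-0.68), Kcnt2 (-0.66) and Rbfox2 (-0.63). Hcrt rose with a slope of 1.43 ± 0.27 (SE; adjusted p = 0.0123), Oxt, oxytocin, with 1.45 ± 0.34 (adjusted p = 0.0167), Avp, vasopressin, with 1.20 ± 0.33 (adjusted p = 0.0287), Pomc, the melanocortin precursor, with 1.29 ± 0.30 (adjusted p = 0.0159), and Cartpt with 0.77 ± 0.19 (adjusted p = 0.0199). Gal, Hmx2 and Hmx3 rose as 3 of 11 preoptic genes, Otp, Oxt and Avp as 3 of 8 paraventricular and supraoptic genes, and Lmx1b, Barhl1 and Lhx5 as 3 of 8 mammillary genes, beside 3.87% of all genes called higher and 3.02% called lower. Pcsk1n and Vgf rose as 2 of 11 peptide processing genes, Nrgn rose and Prox1 fell among 8 cortical and hippocampal genes, Syt10 fell among the suprachiasmatic genes and Plekhg1 among 11 thalamic genes, and 0 of the 22 clock genes and 0 of the 12 striatal genes passed the test.

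The Grp relations hung on BXD64, the line with the least Grp: without it 0 genes were called, the adjusted p of Hcrt was 0.0775 and that of Oxt 0.0807, though their slopes were 1.33 and 1.27. Leaving out BXD49 gave 1048 calls, leaving out BXD32 1793 (11.2%), and adding the library total 597. With the library total 0 of the preoptic, 0 of the arcuate, 1 of the paraventricular and supraoptic (Oxt) and 2 of the mammillary genes were called, and Pomc, Otp, Cartpt and Avp had adjusted p of 0.0519, 0.0539, 0.0572 and 0.101. The genes that rose with Grp were short and rich in G and C, with a median transcript of 2139 bases and 58.0% G and C, and those that fell had medians of 7124.5 bases and 43.6%, beside 3329 bases and 49.8% over all genes tested. On Six3 the medians were 2716 bases and 55.5% for genes that rose, and 4107 bases and 44.9% for those that fell. On Lhx1 they were 3706 bases and 52.8%, and 4936 bases and 46.6%. On Vip they were 3063.5 bases and 47.5%, and 5150 bases and 47.3%. The 140 genes that fell with Prok2 had medians of 4092.5 bases and 47.5%. The part of transcript length and base composition in the slopes on any member was not tested.

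**Figure D4:**
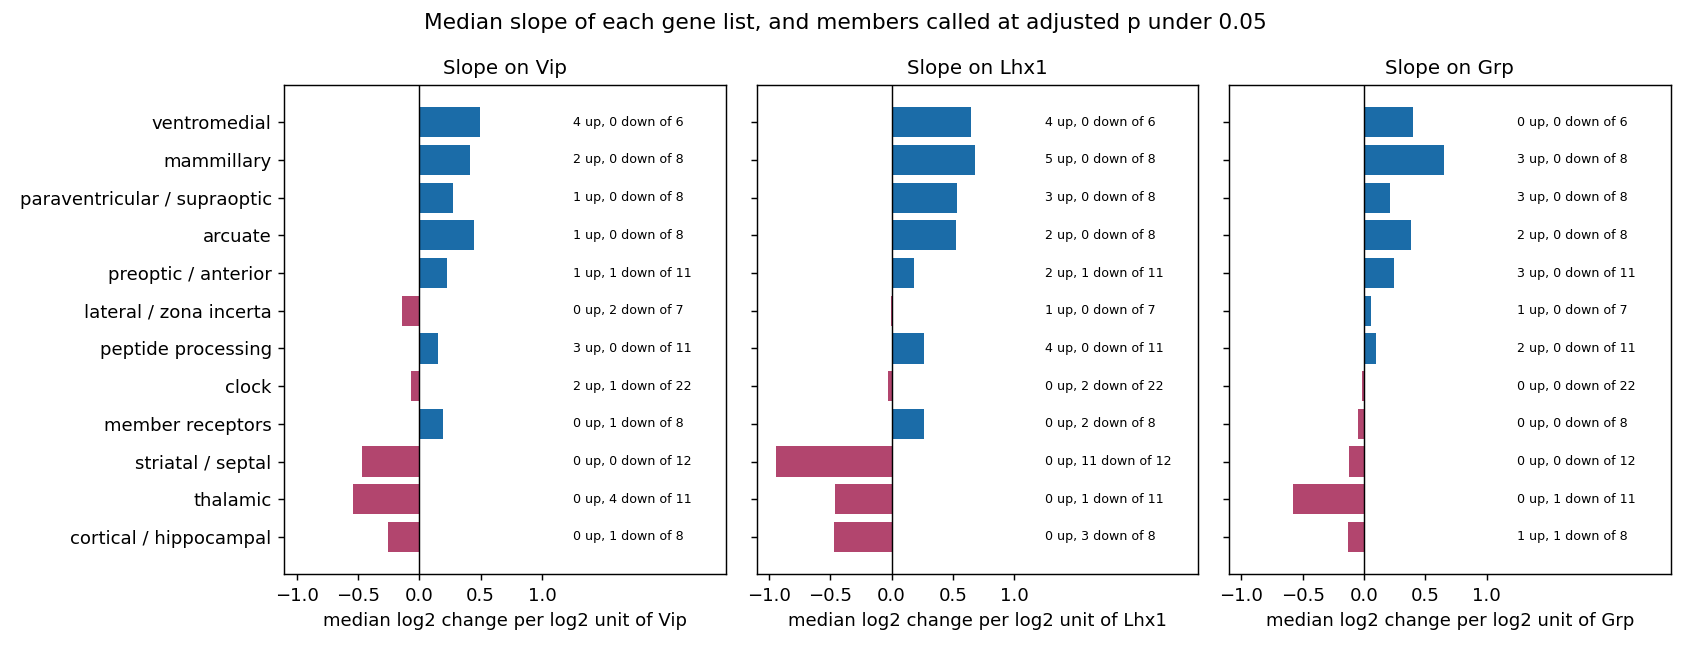
Median slope of 12 gene lists (horizontal, log2 change per log2 unit of Vip, Lhx1 or Grp over the 36 BXD lines), with the number of list members called higher and lower at an adjusted p under 0.05. The striatal and septal list has its lowest median, -0.95, on Lhx1, where 11 of its 12 genes are called lower.

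On Nms 0% of 16003 genes passed the test with edgeR and 0 genes with DESeq2, and 1140 genes (7.12%) had an unadjusted p under 0.05. The genes most like Nms were Acss3 (r = 0.59), 4933407L21Rik (0.58), Foxd2 (0.57), Lhx1os (0.56) and Cry1 (0.55), and the most opposed Zfp879 (-0.62), Mtmr7 (-0.60) and Zc3h12b (-0.56). Each of these 8 had an adjusted p of 0.508. Lhx1os is transcribed beside Lhx1 in the opposite direction, and Cry1 also rose with Vip.

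Nearly all calls on Prok2 and Six3 were lost without BXD32. On Prok2, 0.96% of 16249 genes changed, 16 higher (0.0985%) and 140 lower (0.862%), with 1 gene (0.00628%) called without BXD32. On Six3, 8.37% of 16249 genes changed, 576 higher (3.54%) and 784 lower (4.82%), with 0 genes called without BXD32 and 1256 at an unadjusted p under 0.05; none of the 5 other members passed on either gene. Of 10 choroid plexus genes 7 fell with Prok2, with a median slope of -0.73, and 7 with Six3, with a median of -1.68 (Ttr, Kl, Aqp1, Kcne2, Enpp2, Sostdc1 and Slc4a5 in each, from the same libraries). Without BXD32 0 of the list passed. Slc4a5 was then too low to be tested, so both its place among the tested genes and its call hung on that library. Ttr, for example, had a slope of -3.32 ± 0.52 (SE) on Prok2 and of 0.72 without BXD32.

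With BXD32 kept, Fam107a (r = 0.74), D430019H16Rik (0.63), Pdyn, the dynorphin precursor (0.63), Six3os1 (0.61) and Creld2 (0.60) were most like Prok2, and Vamp1 (-0.71), Syt2 (-0.69) and Mab21l2 (-0.67) most opposed. Without BXD32 the r was 0.55 for Fam107a, 0.41 for Pdyn and 0.26 for Six3os1. Pvalb, Snap25 and Nefl also fell with Prok2, and none of them passed without BXD32. The genes most like Six3 were Dpf1 (0.74), Fbxo6 (0.73), Chst1 (0.71), Ppp1r9b (0.68) and Sirpa (0.68), with r of 0.44 to 0.61 without BXD32, and the most opposed Mtmr2 (-0.72), Mapk9 (-0.71) and Endod1 (-0.71). Dbp and Tef, clock output factors that bind the D-box, rose with Six3 as 2 of 22 clock genes, with slopes of 1.26 ± 0.34 and 0.38 ± 0.09 (SE), and had adjusted p of 0.610 and 0.660 without BXD32. Nor did other list genes called on Six3 pass without BXD32, among them Rgs16, Cck, Egr3, Arc, Ramp3, Nrgn, Tubb3, Eno2 and Aldh1l1, which rose, and Scg3, Mobp, Ermn, Snap25 and Nefl, which fell.

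**Figure D5:**
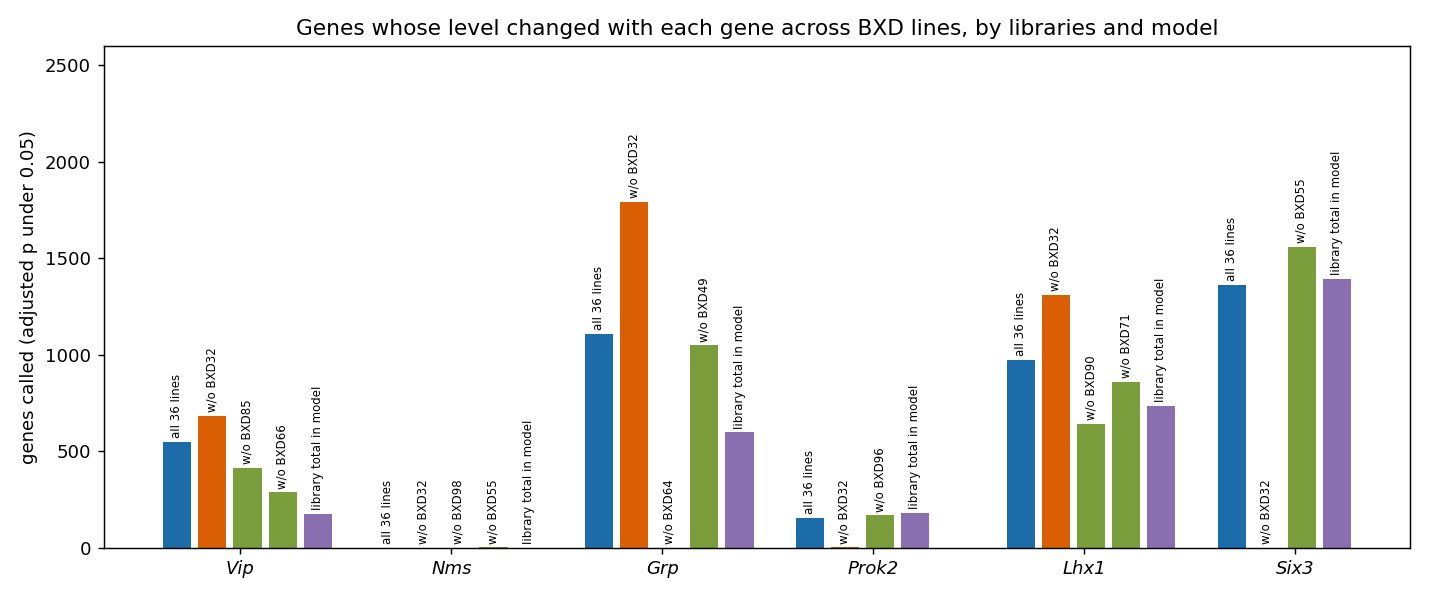
Number of genes called at an adjusted p under 0.05 (vertical) whose level changed with each member across BXD lines, for all 36 lines (blue), without BXD32 (orange), without another line at the end of the member's range (green) and with the log2 library total in the model (purple). Six3 falls to 0 calls without BXD32 and Grp to 0 without BXD64, while Lhx1 has 643 without BXD90 and 859 without BXD71.

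Of the neighbours of the members on their chromosomes, the 2 nearest tested genes on each side, 0 of 24 passed the test. The nearest to the threshold were the antisense transcripts Lhx1os, with a slope of 0.72 ± 0.27 (SE; adjusted p = 0.120) on Lhx1, and Six3os1, with 0.35 ± 0.15 (adjusted p = 0.119) on Six3, which was -0.02 without BXD32, and Rax, a retinal and hypothalamic homeobox gene beside Grp on chromosome 18, with 1.08 ± 0.42 (adjusted p = 0.104). The libraries were stranded, but whether the counting used the strand was not given in the sources used here, so reads of Lhx1 and Lhx1os, or of Six3 and Six3os1, may not have been told apart.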

How the data were processed

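Poly(A) RNA of the hypothalamus was sequenced as 100-base single-end reads from stranded libraries, 40 M reads planned, per the labels' protocols. TopHat2 2.0.8, HTSeq 0.5.4p3, DESeq and the mm9 build are named, per the submitters' processing notes. The authors deposited a table of raw counts, used for every result, and a normalized table (a signal, deposited by the authors for 15251 genes), used only to repeat the single-library differences. It was not accepted as whole reads.

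Counts were analysed with edgeR 4.0.16 (TMM, filterByExpr, robust quasi-likelihood F test, two-sided, Benjamini-Hochberg, adjusted p under 0.05). Log2 CPM used a prior count of 2. Shares of variance from counting set the Poisson error of the reads, without the prior count, against the variance of log2 CPM with it. The prior count narrows that variance most at low reads, so the shares of Nms, Grp and Prok2 are upper estimates. BXD lines were set against the other 4 strains, F1 hybrids against inbred strains, and slopes were fitted over the 36 BXD lines. Pairs used 100000 permutations, two-sided. DESeq2 1.42.0 was an alternative. Intervals are 95% Poisson and cover counting error only. No 2 libraries were identical. Both strain contrasts and the slope on Vip, whose code serves the other slopes, were tested on simulated data.

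Named genes were the members, for each member the 5 genes of highest and 3 of lowest r among genes of at least 1 CPM, and list genes called; some of these genes are not reported here. Neighbouring genes are given as a count, and Rax, Lhx1os and Six3os1 were picked out after their values were seen. Members and lists were chosen with earlier results of these data known. Promoters came from RefSeq (GRCm38.p6), with 5 of the 6 members used. Lengths and G and C shares came from GENCODE transcripts of the current reference, matched by symbol for 97.1% of the genes in the set with the fewest matches, which may differ from the annotation the authors counted on.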

Additional observations from a re-analysis of the deposited data

How the results depend on the processing

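No paired analysis was possible because the groups compared share no replicate numbers beyond a single library for a strain. The recovered-reads repeat of both strain contrasts was not run, since the deposited normalized table did not pass as whole reads. Variation between animals of a strain was not measured, and Nms, Grp and Prok2 rest on as few as 10, 30 and 13 reads, which limits them to differences well above counting error.

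Of the 80 repeats of the main counts 63 stayed within 1.5 times. The pairs called were 0 without the 2 farthest lines and 1 without BXD32, against 2; leaving out each line in turn gave 0 to 3. For hybrids against inbred strains 1 gene was called without BXD32, and leaving out a hybrid gave 0 to 1; leaving out any of the 4 strains gave 0 for BXD lines. On Vip 175 genes were called with the library total added and 286 without BXD66, against 549. On Nms 1 was called without BXD55. On Grp, against 1108, there were 597 with the library total, 1793 without BXD32, 0 without BXD64 and 0 without BXD64 and BXD49. On Prok2, against 156, there were 1 without BXD32 and 0 without BXD32 and BXD96. On Lhx1, against 971, there were 643 without BXD90 and 525 without BXD90 and BXD71. On Six3, against 1360, there were 0 without BXD32 and 0 without BXD32 and BXD55. The cause was not tested. Omitting single lines, other than as planned, was chosen after seeing the data.

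Of 1834 repeats for single genes and pairs, 1491 kept direction and call, 309 lost the call and 29 changed sign. Without BXD32 the r of Vip and Prok2 was 0.155 and of Prok2 and Six3 -0.0039; slopes on Prok2 were 0.12 for Kl and 0.72 for Ttr, and slopes on Six3 were 0.72 for Aqp1, 0.52 for Kcne2, 0.0289 for Kl, 0.27 for Nefl, -0.0214 for Six3os1, 0.10 for Sostdc1 and 10.74 for Ttr. Without the 2 farthest lines the r was 0.105 for Grp and Six3 and -0.0372 for Prok2 and Six3; slopes on Prok2 were 0.25 for Aqp1, 0.16 for Kl and 0.95 for Ttr, and slopes on Six3 were 0.15 for Aqp1, 0.19 for Enpp2, 0.0191 for Ermn, 0.43 for Kcne2, 0.13 for Nefl, -0.00831 for Six3os1, 0.22 for Sostdc1 and 10.59 for Ttr. Spearman's rho of Vip and Prok2 was 0.0852. In the contrast of BXD lines, which called no member, leaving out each of the 4 other strains gave a log2 difference of -0.083 to 0.21 for Vip and of -0.15 to 0.071 for Prok2; for Grp in the hybrids the range was -0.12 to 0.34.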
